A study of Rattus norvegicus with 9 samples.

Results

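Ribosomal proteins and translation factors were followed in the cardiac transcriptome of rats with heart failure (HF) after myocardial infarction. They were picked by gene name: proteins of the cytosolic and the mitochondrial ribosome, initiation factors (Eif) and elongation factors (Eef), without the kinase gene Eif2ak2 and the S6 kinase genes. In all, 91 of 5760 listed genes met this rule, 51 of them in the first deposited table and 50 in the second, with 10 in both. By class they were 19 large and 12 small subunit proteins of the cytosolic ribosome, 11 large and 5 small subunit proteins of the mitochondrial ribosome, 20 initiation factors, 6 elongation factors, 5 regulators or binding proteins and 13 entries annotated or named as pseudogenes, of which 1, Rpl9-ps6, carries a protein-coding biotype and was placed there by its name.

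Cardiac RNA of 9 male Sprague Dawley rats was sequenced after selection of polyadenylated RNA, 3 rats of the 8 in each group. Control rats had a sham operation and distilled water. Model rats had ligation of the left anterior descending artery and distilled water, and Cal rats had the same ligation and calycosin (Cal), an isoflavone of Astragalus, at 80 mg/kg per day for 28 days, starting 24 h after surgery. The model rests on surgery and carries no transgene, and a piece of heart holds scar, vessels and infiltrating cells as well as cardiomyocytes.

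The sample columns hold normalized counts, a gene's reads divided by 1 size factor per library, and the tables list just those genes whose adjusted p in the authors' test was under 0.05. The first table holds 4288 genes in libraries headed Cal and Model, and the second holds 2458 genes in libraries headed Cal and Con (sham). The headings conflict. In the first table the authors' mean columns carry the names of the sample columns the other way round: averaging Cal_1 to Cal_3 gives the column named Model, and averaging Model_1 to Model_3 gives the column named Cal. In the second table averaging Cal_1 to Cal_3 again gives the column named Model. The libraries headed Cal are the same in both tables, with identical reads for 986 of 986 shared genes. Libraries are therefore named here by their sample heading, and by the mean columns the library headed Cal is a model library and the library headed Model is a Cal library. If the mean columns are right, every direction between Cal and Model below turns around, and a difference between Cal and Con is one between model and sham with its direction kept. Reads on the listed genes ranged from 2860826 to 4659882 per library and table.

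Cytosolic ribosomes translate nuclear-encoded mRNA, and mitochondrial ribosomes make the few respiratory chain subunits encoded in mitochondrial DNA, on which the heart leans heavily. Initiation factors bring the initiator tRNA and the mRNA to the small subunit, elongation factors deliver aminoacyl-tRNAs and move the ribosome along, and growth signals through mTORC1 and stress signals through phosphorylation of eIF2 set the rate. Messenger RNAs of cytosolic ribosomal proteins and elongation factors typically begin with a run of pyrimidines (the TOP motif), through which mTORC1 and the binding protein Larp1 control their translation together.

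Start-site sequences are shown first because they are a feature that the choice by gene name did not use. They come from the RefSeq promoter table of the rat assembly GRCr8, matched by symbol for 61 of the 78 members outside the pseudogene entries, and run from 40 bases before to 20 bases after the annotated start, 5′ to 3′. Capitals mark the longest unbroken run of C or T that overlaps the 10 bases on either side of the start. The first 5 belong to genes with long runs, and the last 3 are a ribosomal protein, a mitochondrial ribosomal protein and a helicase with short ones.
Rpl29 (chr8:115947603-115947662, plus strand): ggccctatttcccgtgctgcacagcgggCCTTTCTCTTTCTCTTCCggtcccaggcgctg
Rps23 (chr2:23814477-23814536, plus strand): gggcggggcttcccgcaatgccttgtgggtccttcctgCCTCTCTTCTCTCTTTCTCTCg
Rps24 (chr16:96477-96536, plus strand): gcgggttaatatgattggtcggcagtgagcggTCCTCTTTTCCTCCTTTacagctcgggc
Rpl21 (chr12:13386134-13386193, minus strand): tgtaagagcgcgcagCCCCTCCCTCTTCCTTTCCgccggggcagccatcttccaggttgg
Eef1b2 (chr9:72074051-72074110, plus strand): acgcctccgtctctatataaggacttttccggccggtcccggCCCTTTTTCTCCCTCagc
Rpl3 (chr7:113507971-113508030, minus strand): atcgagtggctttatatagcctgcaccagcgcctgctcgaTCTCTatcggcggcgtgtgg
Mrpl12 (chr10:106256706-106256765, plus strand): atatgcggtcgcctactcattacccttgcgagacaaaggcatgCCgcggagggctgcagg
Eif4a1 (chr10:54888583-54888642, minus strand): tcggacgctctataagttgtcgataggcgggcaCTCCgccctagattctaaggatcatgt

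A run of at least 8 pyrimidines was found at 16 of 24 matched cytosolic ribosomal protein genes (66.7%), with a median run of 9.5 bases. Among all 27457 promoters of the table the share was 13.5% and the median run 4 bases. Initiation and elongation factors held 6 such runs in 23 promoters (26.1%), at Eef1a1, Eef1b2, Eef1g, Eif3d, Eif3i and Eif4h. None was found at 10 mitochondrial ribosomal protein genes or at 4 regulators. The run was 21 bases long at Rps23, 19 at Rpl21, 18 at Rpl29 and 17 at Rps24, whereas it was 5 bases at Rpl3, 4 at Eif4a1 and 2 at Mrpl12. A few further motifs were searched on both strands over the 250 bases before and 50 after the start. The ETS motif ACTTCCGG was present at 3 of the cytosolic ribosomal proteins (12.5%), 5 of the factors (21.7%) and 1 of the 10 mitochondrial ribosomal proteins, beside 4.01% of all promoters. The E-box CACGTG was present at 2, 4 and 1 of them (6.65% of all promoters), and the YY1 letters AAGATGGC at 1, 1 and 3 (3.44%). Matches are letters in a window, and annotated starts can be off by some bases.

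The first comparison set the libraries headed Cal against those headed Model, the contrast meant to show the effect of Cal in HF. All 51 members were lower in the libraries headed Cal at an adjusted p under 0.05 (limma, Benjamini-Hochberg over the listed genes), and none was higher. The median log2 fold change of the members was -0.62, beside -0.52 for all listed genes. Because the authors' test in this same contrast chose the listed genes, nearly every one of them passes again, 46.0% higher and 53.7% lower, so passing is no result about the members. Their common direction is the description that remains. Among the 1705 listed genes with a log2 fold change within 1, 55.4% were lower in the libraries headed Cal and past the adjusted p. Among the 449 of these 1705 genes with a mean of at least 1000 normalized counts, 63.7% were. In 50 of 51 members the 3 libraries headed Cal lay below the 3 headed Model without overlap (98.2% of all listed genes did not overlap). Only 6 members went beyond a log2 fold change of 1, all of them lower (31.6% of all listed genes were called lower and 28.4% higher).

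These directions rest on the authors' size factors. Quantile normalization moved the median of all listed genes from -0.52 to -0.10, and median-ratio scaling on the listed genes moved it to -0.23. Under quantile normalization 35 members stayed lower and 16 were higher, with 16 lower members past the adjusted p, and under median-ratio scaling all 51 stayed lower with 17 past it. Called members went from 6 to 4 under each of these scalings, all 4 lower. The calls over all listed genes, 1219 higher and 1356 lower, became 1393 and 1175 under quantile normalization and 1646 and 1047 under median-ratio scaling.

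**Figure D1:**
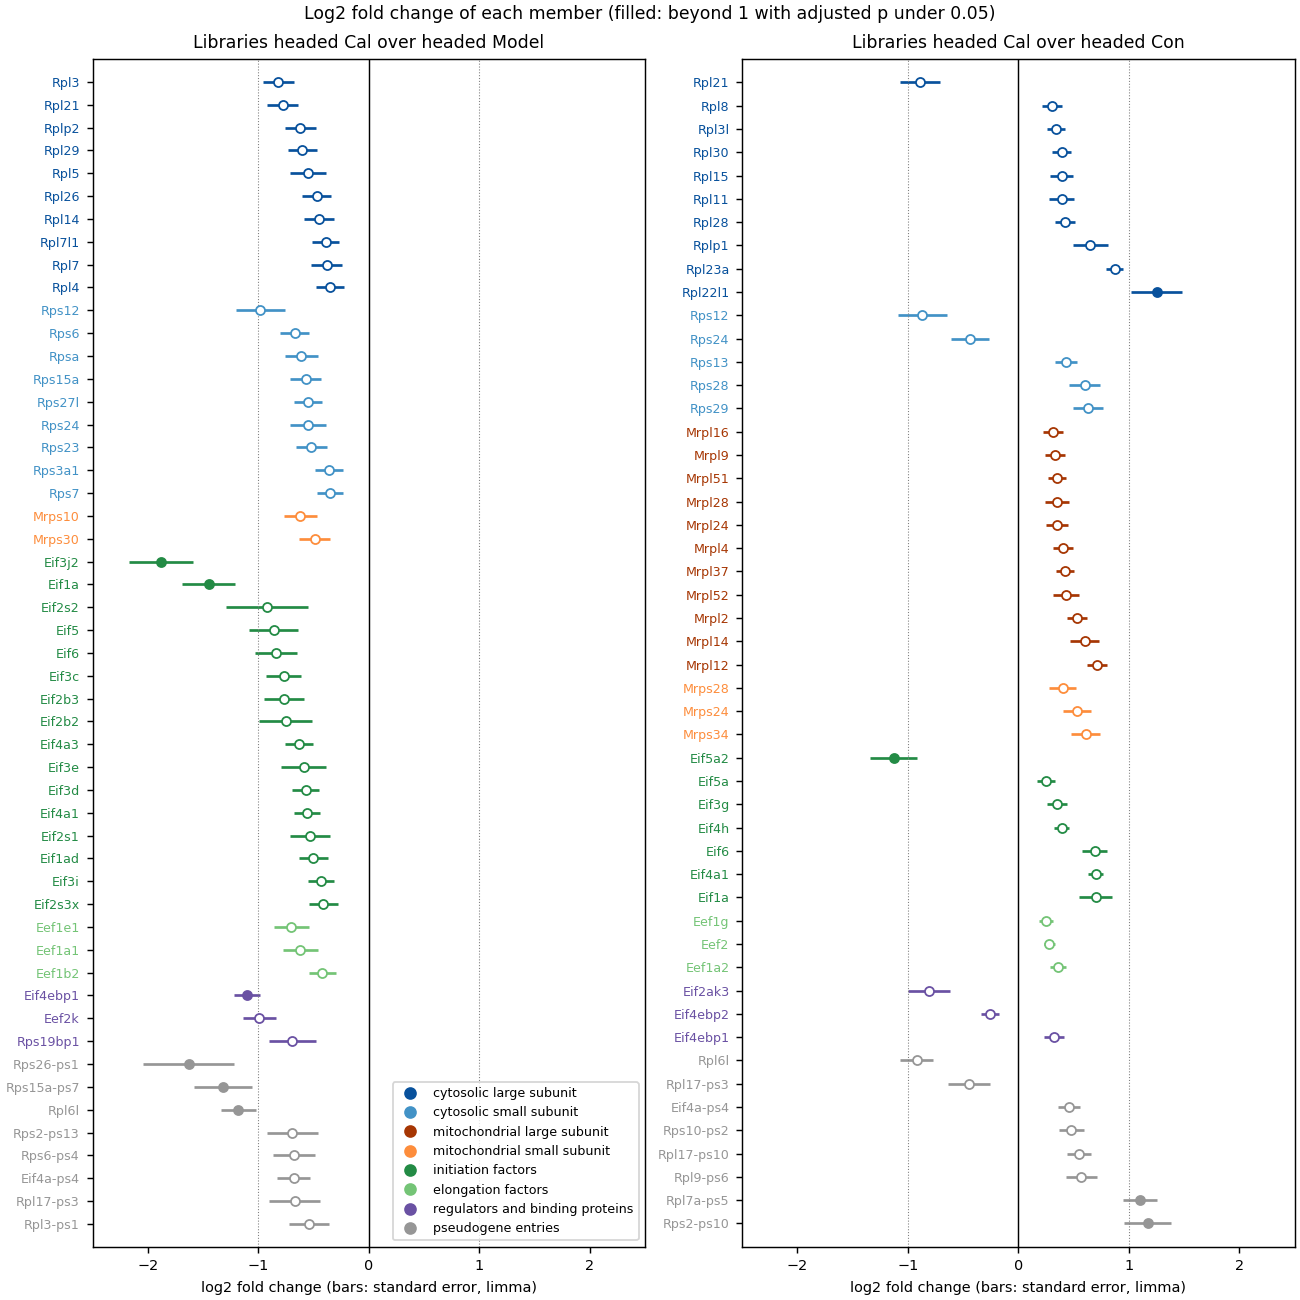
Log2 fold change of each member, with its limma standard error, between libraries headed Cal and Model (left) and between libraries headed Cal and Con (right), 3 libraries per heading, coloured by class; filled points lie beyond 1 in either direction with an adjusted p under 0.05, and dotted lines mark 1 and -1. On the left all 51 points lie below 0, and on the right 42 of 50 lie above it, with the authors' size factors; by the mean columns the libraries headed Cal are model libraries.

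All 19 listed proteins of the cytosolic ribosome were lower in the libraries headed Cal, with a median log2 fold change of -0.55 (-0.51 for 10 large and -0.55 for 9 small subunit proteins), which turned to 0.04 under quantile normalization. Their summed normalized counts were 52510, 52640 and 53600 in the libraries headed Cal, and 81410, 75140 and 71290 in those headed Model. The library headed Model 3 was the lowest of its heading and still lay above every library headed Cal.
Among the large subunit proteins Rpl3, a core protein near the peptidyl transferase centre, fell furthest. Its normalized counts were 2044, 2076 and 2240 under the heading Cal and 4285, 3333 and 3693 under Model, a log2 fold change of -0.82 (SE 0.14, adjusted p = 0.00175, limma). The heading Model spread more widely, with its first library highest, and no library crossed over. Rpl21 read 514, 471 and 553 against 834, 839 and 981 (log2 fold change -0.78). The stalk protein Rplp2, which helps recruit elongation factors, read 1759, 1680 and 1870 against 2718, 2367 and 3100 (-0.62). At the other end Rpl4 (-0.35), Rpl7 (-0.38) and Rpl7l1 (-0.39), a relative of Rpl7, changed least, and all 3 were higher instead under quantile normalization. The remaining large subunit proteins Rpl29, Rpl5, Rpl26 and Rpl14 lay between -0.60 and -0.45.

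Rps12 fell furthest of the small subunit proteins. It read 676, 714 and 759 in the libraries headed Cal and 1940, 1361 and 1059 in those headed Model, a log2 fold change of -0.98 (SE 0.22, adjusted p = 0.00475, limma). The libraries headed Cal were close together, while those headed Model differed among themselves by more than the smallest gap between the headings. Rps6, the ribosomal substrate of the S6 kinases, read 3852, 3807 and 3766 against 6501, 6273 and 5415 (log2 fold change -0.67), a clear gap, although its value under quantile normalization was -0.001. Rpsa, the laminin receptor that also serves in the small subunit, read 6010, 6311 and 7020 against 11245, 9367 and 9068 (-0.61). Rps27l, a p53-responsive relative of Rps27, had a log2 fold change of -0.55, the same as Rps24. Rps7 (-0.35), Rps3a1 (-0.36) and Rps23 (-0.52) showed the smallest differences, and Rps15a had -0.57. Per kilobase of the authors' gene length, levels of the cytosolic proteins in the libraries headed Cal ran from 151 normalized counts at Rpl21 to 5060 at Rps3a1. These lengths go with the mouse identifiers, 3400 bases for Rpl21 and 977 for Rps3a1, so values per kilobase depend on that annotation.

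All 16 initiation factors and all 3 elongation factors were lower in the libraries headed Cal, and the median of these 19 was -0.63 (-0.25 under quantile normalization). Their summed normalized counts were 34230, 34380 and 35320 under the heading Cal, and 57340, 58870 and 48940 under Model. The third library headed Model was again the lowest of its heading.
Eif3j2 (ENSMUSG00000043424), which the mouse annotation gives as a copy of the eIF3 subunit gene Eif3j1, had the largest difference of all members. It read 24, 45.1 and 36.7 against 147, 134 and 107, a log2 fold change of -1.88 (SE 0.29, adjusted p = 0.00109, limma). Every library headed Cal was far below every library headed Model, but the counts were small and reads of a near-identical copy could be split between both. Eif1a (ENSMUSG00000057561), which keeps the scanning small subunit open, read 472, 677 and 555 against 1602, 2024 and 1128 (log2 fold change -1.45, SE 0.24, adjusted p = 0.00147). Here too the third library headed Model was lowest, though above every library headed Cal.

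Subunits of eIF2 and its exchange factor, which load the initiator tRNA and are the target of stress kinases, differed in how their libraries spread. Eif2s2 read 1046, 1238 and 1006 under Cal and 2556, 3177 and 1088 under Model (log2 fold change -0.92, SE 0.37, adjusted p = 0.0397). It was the only member of this table whose headings overlapped, since the library headed Model 3 lay within the range of the heading Cal, and it no longer passed the adjusted p when any of 5 of the 6 libraries was left out. Eif2s1, the subunit that carries the stress-regulated serine, read 791, 940 and 781 against 1308, 1400 and 958 (-0.53). Eif2s3x read 846, 957 and 851 against 1217, 1218 and 1088 (-0.41). Both kept a narrow gap between the headings. The adjusted p was lost on leaving out any of 4 libraries for Eif2s1 and any of 2 for Eif2s3x. Outside eIF2 it was lost in the same way for 5 libraries in Rpl7 and for 4 in Rpl4 and in Eif3e. Of the exchange factor, Eif2b3 had a log2 fold change of -0.77 and Eif2b2 one of -0.75, and in Eif2b2 the library headed Model 3 was the highest (760, after 396 and 483). Eif5, which triggers GTP hydrolysis on eIF2, read 2928, 2895 and 2489 against 5681, 6160 and 3586 (-0.86).

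The helicase Eif4a1, which unwinds the leader of the mRNA, read 3357, 3475 and 3490 against 5384, 4846 and 5045 (log2 fold change -0.56, adjusted p = 0.00429, limma), with little spread under either heading, and it came to 0.03 under quantile normalization. Eif6, which keeps the subunits apart and acts in maturation of the large subunit, read 489, 553 and 595 against 782, 966 and 1214 (-0.84). The exon junction helicase Eif4a3 had -0.63, and 4 subunits of the scaffold eIF3 followed: Eif3c with -0.77, Eif3e with -0.59, Eif3d with -0.57 and Eif3i with -0.43. Eif1ad had -0.50. 
Among the elongation factors Eef1a1, which carries aminoacyl-tRNA to the ribosome, was by far the most abundant at 6430 normalized counts per kilobase under Cal and 9870 under Model. It read 15961, 15189 and 16949 against 25917, 25236 and 22699 (log2 fold change -0.62, SE 0.16, adjusted p = 0.00752, limma). The headings were well apart, yet its direction turned to 0.48 under quantile normalization. Its exchange factor subunit Eef1b2 had -0.42, and Eef1e1, a scaffold protein of the tRNA synthetase complex, -0.70.

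The mitochondrial ribosome was represented here by 2 proteins. Mrps10 read 253, 265 and 244 against 348, 417 and 414 (log2 fold change -0.62, adjusted p = 0.0056, limma), and Mrps30 read 360, 359 and 376 against 469, 561 and 508 (-0.49, adjusted p = 0.0104). In both genes the libraries headed Cal were tightly grouped below the others.
The 3 regulators were lower as well. Eif4ebp1 (ENSMUSG00000031490), the mTORC1-controlled repressor of the cap-binding protein eIF4E, read 694, 740 and 740 against 1540, 1450 and 1666, a log2 fold change of -1.10 (SE 0.12, adjusted p = 0.000378, limma). Eef2k, the kinase that inactivates Eef2, read 488, 431 and 471 against 867, 840 and 1068 (-0.99). In both genes the gap between the headings was wider than the spread under either. Eif4ebp1 kept its adjusted p but not a change beyond 1 under the other scalings, with -0.66 under quantile normalization and -0.80 under median-ratio scaling. Rps19bp1, a nucleolar partner of Rps19, had -0.69.

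Of the 8 pseudogene entries, 3 were called: Rps26-ps1 (-1.63), Rps15a-ps7 (-1.32) and Rpl6l (-1.18). The first 2 rested on few reads, 9.39 to 19.7 normalized counts and 12.2 to 12.9 normalized counts per library headed Cal. Reads of these entries are hard to tell from those of the parent genes, and the more so where rat reads carry mouse identifiers. Eif4a-ps4 had a log2 fold change of -0.68, near the -0.56 of Eif4a1, Rpl3-ps1 had -0.54 beside -0.82 for Rpl3, and Rps6-ps4 had -0.68 beside -0.67 for Rps6. Of the called members 3 remained when pseudogene entries were set aside, Eif3j2, Eif1a and Eif4ebp1.

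**Figure D2:**
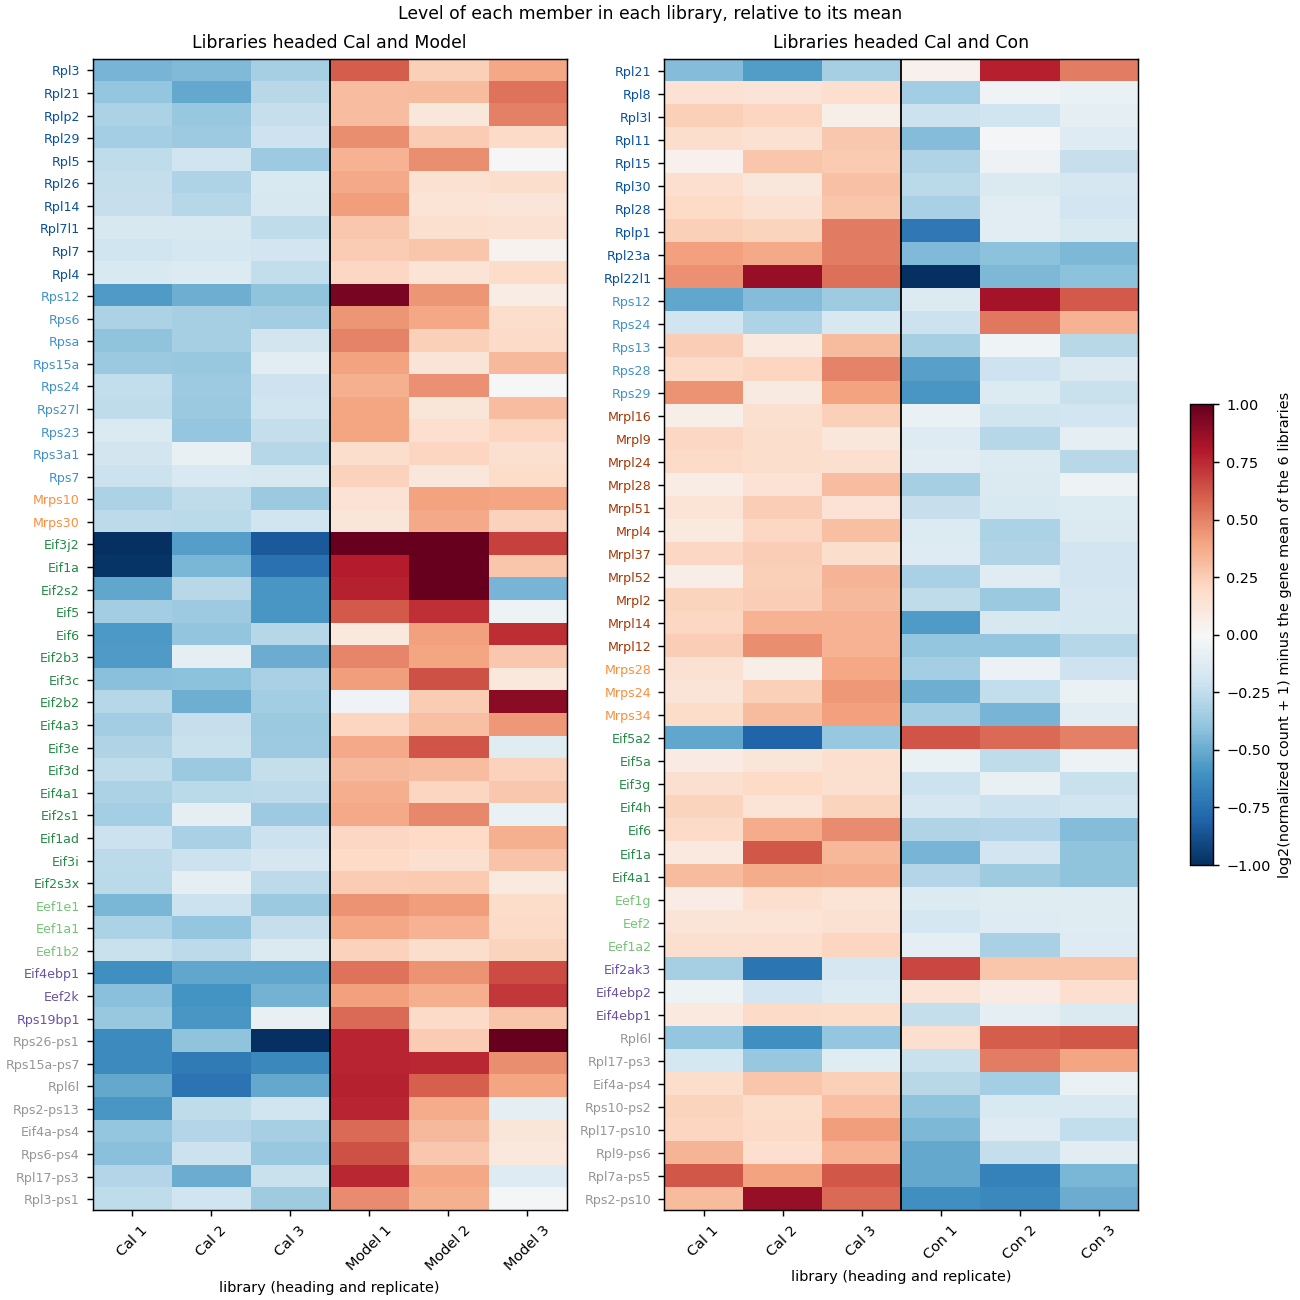
Each row is a member and each column a library; colour gives log2(normalized count + 1) minus the mean of the 6 libraries of the table, and colours saturate beyond 1 and -1. On the left the libraries headed Cal are lower on average in all 51 members, and the headings overlap only in Eif2s2. The library headed Model 3 is the lowest of its heading for Eif2s2, Eif5 and Eif3e. On the right the library headed Con 1 is lowest of its heading for Rps12, Rpl21 and Rps24.

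The other genes of protein synthesis were counted from lists of the pathway. Of 63 ribosome biogenesis genes 44 were listed, and 43 of them were lower in the libraries headed Cal with 1 higher. Their median was -0.86, and 15 were called lower, a share near the 31.6% of all listed genes. Their summed normalized counts were 18000 to 19500 under Cal and 30000 to 37700 under Model. Examples are Rcl1 (-2.00), an endonuclease of rRNA processing, Heatr1 (-1.53), a factor for rRNA transcription, Nop56 (-1.23), a core protein of box C/D particles, and Ncl (-0.77), the nucleolar protein nucleolin. The exception was Ubtf (0.51), the upstream binding factor of RNA polymerase I.
Of the aminoacyl-tRNA synthetase list 15 genes were listed and all 15 were lower, 8 of them called, with a median of -1.07. Wars, the tryptophan enzyme and a known interferon response gene, stood first with -2.57, and its mean was 823 (SD 138, n = 3) under Cal and 4910 (SD 948, n = 3) under Model. Gars had -1.21 and Sars -0.44.
Of 20 genes of the integrated stress response, the program set off by eIF2 phosphorylation, 14 were listed, 12 lower and 2 higher, with 6 called lower and a median of -0.92. Trib3 (-3.76), Asns (-3.14) and Mthfd2 (-2.87), targets of Atf4, and Atf4 itself (-0.87) were lower, while Ppp1r15a (0.62), which directs dephosphorylation of eIF2, and Atf5 (0.59) were higher. Of 23 genes of mTORC1 and growth signalling 6 were listed, 2 higher, Mycn (1.70) and Sesn1 (0.41), and 4 lower. The lower ones were Mxd1 (-1.42), Sesn2 (-1.19), which also stands in the stress response list, Larp1 (-0.62) and Rragc (-0.42). All 4 listed of 22 genes of poly(A) binding, termination and recycling were lower, with Pabpc1 at -0.80, and the mitochondrial translation list held 2 of 38, Mrrf (-0.52) and the mitochondrial RNA polymerase Polrmt (0.82).

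Markers of other cell types moved in the same comparison. Of 10 endothelial markers 9 were listed and all were higher in the libraries headed Cal, with summed normalized counts of 15500 to 18200 under Cal and 6690 to 8570 under Model. Of 10 fibroblast markers 5 were listed, 4 higher and 1 lower (sums 21100 to 24700 and 17300 to 24400). Of 19 leukocyte markers 8 were listed, 4 higher, among them Lyz2 and Cd163, and 4 lower, among them the neutrophil genes S100a8, S100a9 and Csf3r (sums 5710 to 6410 and 3200 to 4200). None of 15 cardiomyocyte markers was listed, and no listed marker was at 0 in all libraries. The part of cell composition in the fall of the members was not tested. In RNA from whole tissue, fewer cells of a type and less RNA per cell cannot be told apart.

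The second comparison set the same libraries headed Cal against those headed Con, in the table deposited as model against sham, which asks what HF changed. Its libraries headed Cal are shared with the first, so the comparisons are not independent. Of 50 members 42 had higher levels under Cal and 8 had lower ones, all at an adjusted p under 0.05 (limma), beside 60.6% and 39.2% of all listed genes. The authors' test in this contrast chose the listed genes here too, so passing is again no result about the members. The median log2 fold change was 0.40, beside 0.37 for all listed genes. Calls beyond a log2 fold change of 1 were 3 higher and 1 lower (18.0% and 10.9% of all listed genes). In 48 of 50 members the headings did not overlap (97.4% of all listed genes), the exceptions being Rps24 and Rpl17-ps3. Within a log2 fold change of 1, 39.9% of the listed genes were lower and past the adjusted p. Of those that also had a mean of at least 1000, 18.4% were.
Scaling mattered here too. Quantile normalization moved the median of all listed genes to -0.04 and left 22 members higher (8 of them past the adjusted p) and 28 lower (10 past it), and median-ratio scaling moved that median to 0.09 and left 39 higher and 11 lower (10 and 8 past it). The calls over all listed genes, 443 higher and 269 lower, became 348 and 387 under quantile normalization and 342 and 447 under median-ratio scaling, and those over the members became 2 and 4, and 0 and 5.

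All 14 listed proteins of the mitochondrial ribosome were higher in the libraries headed Cal, 11 of the large and 3 of the small subunit, with log2 fold changes from 0.31 to 0.71 and a median of 0.41. Under quantile normalization the median was 0.06. Their summed normalized counts were 14630, 15470 and 15880 under Cal, and 11060, 11130 and 11810 under Con.
Mrpl12, a stalk protein that also binds the mitochondrial RNA polymerase, read 1269, 1474 and 1365 against 820, 819 and 877, a log2 fold change of 0.71 (SE 0.09, adjusted p = 0.000377, limma). All 3 libraries headed Cal lay well above those headed Con. Mrps34 read 532, 583 and 621 against 368, 339 and 435 (0.61), and Mrpl14 read 690, 761 and 760 against 402, 535 and 528 (0.60). Both had a gap wider than the spread under Cal. Mrpl2 and Mrps24 had 0.53 and Mrps28 0.40, and the smallest differences were those of Mrpl16 (0.31), Mrpl9 (0.33), Mrpl24 (0.35), Mrpl28 (0.35) and Mrpl51 (0.35). Under quantile normalization 8 of the 14 stayed higher, 1 of them past the adjusted p, and 6 turned negative. Mrpl16, Mrpl9 and Mrpl51 were among these 6.

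Proteins of the cytosolic ribosome divided, with 12 higher and 3 lower under Cal and a median of 0.39 (-0.07 under quantile normalization). Their summed normalized counts were 33440, 32590 and 35400 under Cal, and 23880, 31900 and 29880 under Con, where the first library stood lowest.
Rpl22l1 (ENSMUSG00000039221), a paralog of Rpl22 with a low level, rose most. It read 108, 144 and 115 against 38.2, 57.0 and 58.7, a log2 fold change of 1.25 (SE 0.23, adjusted p = 0.00184, limma). The lowest library headed Cal was well above the highest headed Con. Rpl23a read 1883, 1842 and 2021 against 1041, 1062 and 1035 (0.87, adjusted p = 4.9e-05), with very little spread under either heading. Rplp1, the stalk partner of Rplp2, read 4616, 4559 and 5605 against 2382, 3635 and 3531 (0.65), and was the most abundant of these proteins per kilobase, at 9870 normalized counts under Cal. Rpl3l, the paralog of Rpl3 found in striated muscle, read 4015, 3952 and 3539 against 2927, 2965 and 3192 (0.34, adjusted p = 0.00492), a modest gap, and had -0.14 under quantile normalization. Rps29 (0.63), Rps28 (0.60) and Rps13 (0.43) rose in the small subunit, and Rpl8 (0.30) had the smallest rise of the large. Rpl28, Rpl30, Rpl15 and Rpl11 lay between 0.39 and 0.42.

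The 3 lower proteins were Rpl21, Rps12 and Rps24. Rpl21 read 575, 528 and 617 under Cal and 801, 1333 and 1107 under Con (log2 fold change -0.89, SE 0.18, adjusted p = 0.00266, limma). Rps12 read 756, 801 and 846 against 984, 1923 and 1660 (-0.87, SE 0.22, adjusted p = 0.00644). Rps24 read 3648, 3380 and 3744 against 3610, 6019 and 5316 (-0.44, SE 0.17, adjusted p = 0.0305). In all 3 genes the library headed Con 1 was lowest of its heading, and for Rps24 it lay inside the range of the heading Cal. Without Con 1, members called lower went from 1 to 4, with log2 fold changes of -1.08 for Rpl21 and -1.16 for Rps12, and Rps24 no longer passed the adjusted p when any of the other 5 libraries was left out.

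Of 10 initiation and elongation factors 9 had higher and 1 had a lower level under Cal, with a median of 0.35 (-0.05 under quantile normalization). Eif4a1 read 3754, 3896 and 3891 against 2462, 2363 and 2289 (log2 fold change 0.70, SE 0.07, adjusted p = 8.68e-05, limma), Eif1a read 528, 759 and 619 against 357, 430 and 373 (0.70), and Eif6 read 547, 620 and 664 against 388, 392 and 354 (0.69). In these genes every library headed Cal was above every library headed Con. Eif4h, a cofactor of Eif4a1, had 0.39, the eIF3 subunit Eif3g 0.35 and Eif5a, which helps ribosomes through proline-rich stretches, 0.25.
Eif5a2 (ENSMUSG00000050192), the rare paralog of Eif5a, was the exception. It read 30.9, 25.3 and 34.3 against 69.9, 66.8 and 63.8, a log2 fold change of -1.13 (SE 0.21, adjusted p = 0.00217, limma). The headings were far apart, on small counts. Eef2, the translocase, read 27108, 27247 and 27462 against 21914, 22667 and 22743 (0.28), and Eef1a2, the muscle and nerve form of eEF1A, read 23618, 23696 and 24520 against 19905, 16865 and 19379 (0.36). Both were among the most abundant members and had clear but small gaps, and Eef1g had 0.25. All 3 turned negative under quantile normalization.

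The regulators went apart. Eif2ak3, the PERK kinase that phosphorylates eIF2 under endoplasmic reticulum stress, read 137, 104 and 154 against 275, 210 and 210 (log2 fold change -0.81, SE 0.19, adjusted p = 0.00497, limma). Eif4ebp2 read 1895, 1719 and 1788 against 2164, 2082 and 2212 (-0.26, adjusted p = 0.0111), and Eif4ebp1 read 776, 829 and 825 against 614, 680 and 658 (0.32, adjusted p = 0.0102). None of the 3 had overlapping headings, so these eIF4E repressors moved in opposite directions, although Eif4ebp1 came to -0.06 under quantile normalization.
Of 8 pseudogene entries 6 were higher and 2 lower. Rps2-ps10 (1.17) and Rpl7a-ps5 (1.10) were called, at 77.4 to 114 and 184 to 214 normalized counts under Cal. The entries for Rpl17 went both ways, Rpl17-ps10 with 0.55 and Rpl17-ps3 with -0.45, and Rpl6l had -0.92.

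Most of the pathway lists held fewer genes here, but the mTORC1 and growth list held 9 after 6 and the mitochondrial translation list 6 after 2. All 6 listed ribosome biogenesis genes rose under Cal (median 0.52), with Nop58 at 0.66 and Ddx21 at 0.50, and so were all 6 listed mitochondrial translation genes (median 0.37), among them the elongation factor Tufm (0.36). All 3 poly(A) binding and termination genes were higher, with Pabpn1 at 0.81, and the 1 listed tRNA synthetase, Qars, had 0.34. Of the mTORC1 and growth list 9 were listed, 7 higher and 2 lower, and Myc, a driver of ribosomal gene transcription, had a log2 fold change of 3.40 with a mean of 643 (SD 61.7, n = 3) under Cal and 60.2 (SD 6.87, n = 3) under Con. Of the stress response 8 were listed, 7 higher and 1 lower, with Atf3 at 3.66, Ppp1r15a at 2.11 and Trib3 at -1.37.
Cardiomyocyte markers were listed for 5 of 15, all higher, with sums of 666000 to 683000 normalized counts under Cal and 499000 to 612000 under Con, and Myh6 and Atp2a2 were abundant in libraries of both headings. Of the leukocyte markers 4 were listed, 3 higher and 1 lower (sums 2050 to 2910 and 1110 to 1240). All 6 listed fibroblast markers were lower (13800 to 16200 and 19800 to 21400), as were 6 of 7 endothelial markers (14300 to 16100 and 21000 to 24300). The part of these shifts in the values of the members was not tested.

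The 10 members in both tables could be placed across all 3 headings. Levels of the libraries headed Con were multiplied by 0.8943, the ratio of the scales of both tables in the shared libraries (0.8919 to 0.8969). Con and Model were normalized in separate tables, so their difference was not tested. A gene listed in both comparisons had passed the authors' test of Cal against each of the other headings. Gaps between Cal and its neighbours are therefore no result about the members (98.2% and 97.4% of all listed genes did not overlap). The orders given below were not counted over the 986 shared genes.
For Eif1a, Eif4a1, Eif4ebp1, Eif6 and Eif4a-ps4 the order was Con, Cal, Model from low to high, with no overlap between neighbours. Eif1a had means of 346, 568 and 1585, and Eif4a1 of 2121, 3440 and 5092. Eif4ebp1 had 582, 724 and 1552, and Eif6 had 338, 546 and 987. As a difference on the log2 scale, Cal minus Con was 0.70 and Cal minus Model -1.45 for Eif1a, so the step to Model was the wider, as it was for Eif4ebp1, Eif6 and Eif4a-ps4. For Eif4a1 it was the narrower, with 0.70 and -0.56.
For Rpl21, Rps12, Rps24, Rpl6l and Rpl17-ps3 the heading Cal was lowest and the headings Con and Model overlapped. Rpl21 had means of 966 under Con, 513 under Cal and 885 under Model. Rps12 had 1361, 717 and 1453, and Rps24 had 4455, 3211 and 4730. These orders hold with the authors' size factors. Under quantile normalization Eif4a1 had 0.03 and Rps24 had 0.039 for Cal minus Model, so that Cal was no longer the lower. Eif4ebp1 had -0.06 for Cal minus Con and -0.66 for Cal minus Model, so that Cal was lowest.

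**Figure D3:**
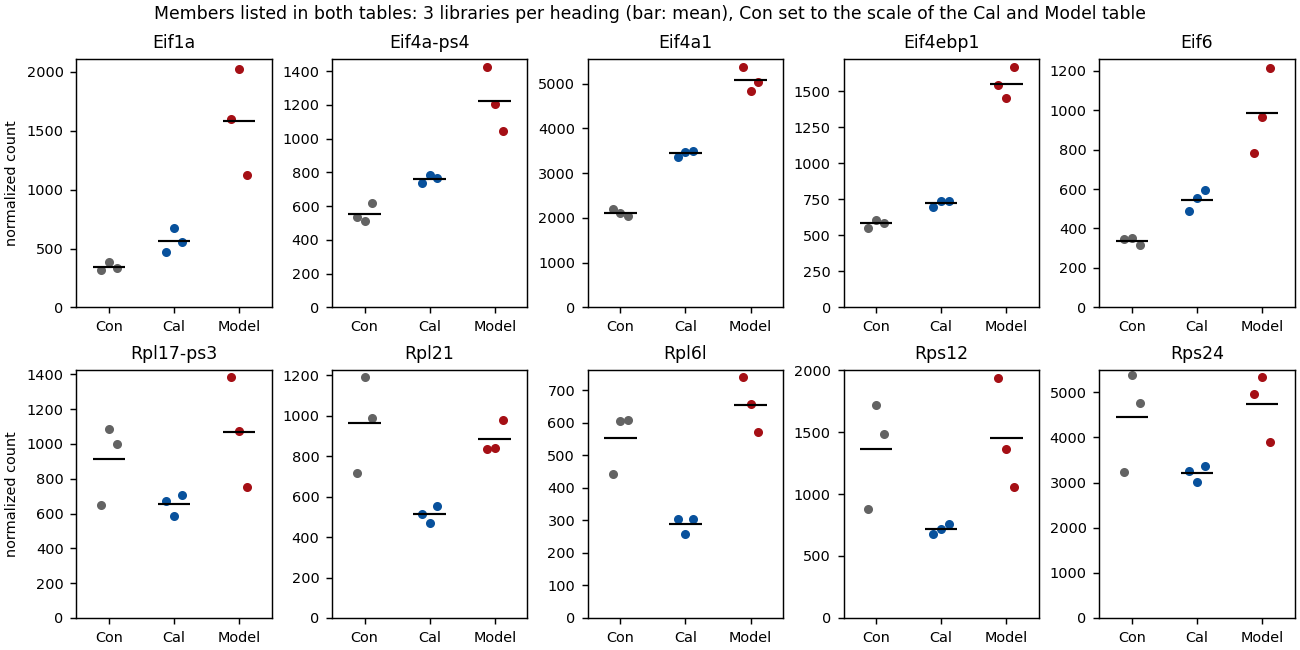
Normalized counts of the 10 members listed in both tables, 3 libraries per heading (points) with their mean (bar), on the scale of the Cal and Model table. With the authors' size factors the upper row rises from Con over Cal to Model, as in Eif1a with means of 346, 568 and 1585. The lower row is then lowest under Cal, as in Rps12 with 1361, 717 and 1453. Under quantile normalization the order of Eif4a1 and Eif4ebp1 changes, and Rps24 is no longer lower under Cal than under Model.

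The plot of medians under 3 scalings sets the classes beside all listed genes. With the authors' size factors the 3 plotted classes lay below 0 against Model and above 0 against Con. The regulators, which are not plotted, had medians of -0.99 and -0.26. Under quantile normalization the cytosolic ribosomal proteins lay above the listed genes in the first table, at 0.04 beside -0.10, and the mitochondrial ribosomal proteins above them in the second, at 0.06 beside -0.04.

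**Figure D4:**
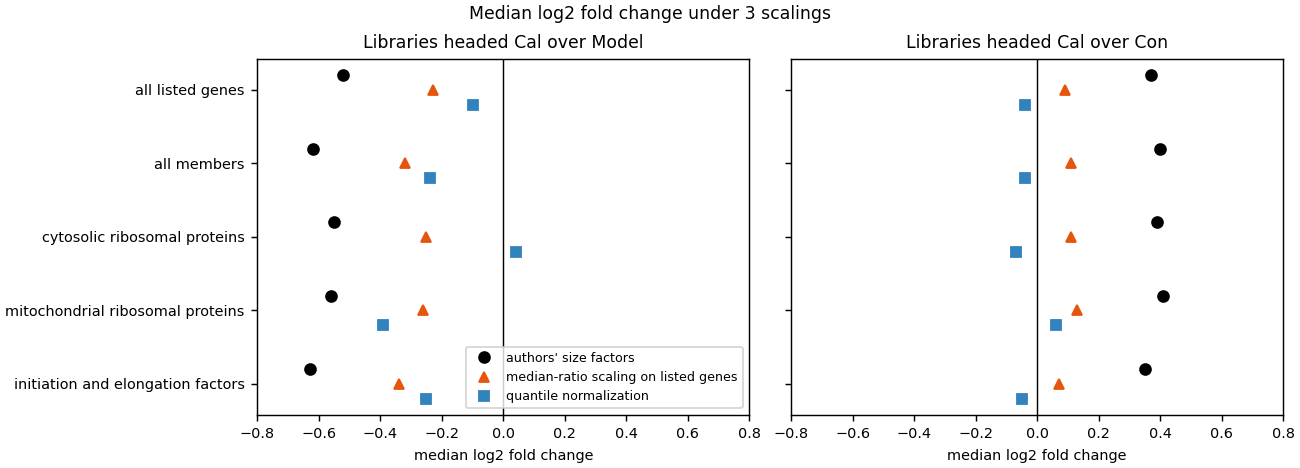
Median log2 fold change of all listed genes, all members and 3 classes under the authors' size factors, median-ratio scaling on the listed genes and quantile normalization, for libraries headed Cal over Model (left) and over Con (right). The medians of all listed genes move toward 0 under quantile normalization, from -0.52 to -0.10 on the left and from 0.37 to -0.04 on the right.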

How the data were processed

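The authors aligned reads of poly(A)-selected paired-end libraries and counted them per gene. The submitters' processing notes list Bowtie 0.12.2 and the mouse builds mm8 and mm9, whereas the study's methods name rat references, and gene identifiers are mouse Ensembl. Mouse coordinates were not used here. The deposited signal is a count divided by 1 size factor per library, set by the authors separately for each table (whole reads recovered for 100% of values, within 0.05 reads). Total depth is unknown, since unlisted genes were not analysed here. The deposited adjusted p-values of the authors were read only to find the listing threshold, and the deposited fold changes were not used. The mean columns served only to check headings.

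Both comparisons used limma 3.58.1 in R 4.3.3 with a trended prior, applied to log2(normalized count + 1), and Benjamini-Hochberg adjustment ran within each table. The adjustment covered only genes already chosen by the authors' test, so the adjusted p does not bound the share of false calls. A gene was called when this adjusted p was under 0.05 with a change beyond 1 on the log2 scale. A fold change on this scale understates low genes. The replicates are different rats, and 3 against 3 allows no exact permutation p below 0.1. Members, pathway lists and marker lists were chosen with earlier results of these data known. Named members are those in both tables, all called ones, the 3 highest and 3 lowest per table and class (all of a class of 6 or fewer), and a list of key genes; others named in passing were chosen after their values were seen. Other settings tried were a pseudocount of 0.1 or 10, only genes with a mean of 10 or more, an adjusted p under 0.01, no fold limit, quantile and median-ratio scaling, edgeR 4.0.16 and DESeq2 1.42.0 on recovered reads, a block for replicate number, and omitting every library in turn. Only the limma fit was tested on simulated counts, which did not include the authors' selection of genes. Promoters came from RefSeq, GRCr8.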

Additional observations from a re-analysis of the deposited data

How the results depend on the processing

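The limits are the small groups, the listing by the authors' own test, scaling that was set on genes not analysed here, and mouse identifiers for rat reads. Without a fold change limit the called members rose from 6 to 51 against Model and from 4 to 50 against Con, and the called listed genes from 2575 to 4272 and from 712 to 2454. With the pseudogene entries set aside, an alternative chosen after seeing the data, 3 and 2 members were called. Leaving out each library gave 6 to 9 called members against Model and 4 to 7 against Con, where 7 came without Con 1. By edgeR and DESeq2 8 members were called against Model and 4 against Con, with all 51 and 50 past the adjusted p. Under quantile normalization and median-ratio scaling the class medians against Model were 0.039 and -0.249 for cytosolic ribosomal proteins, -0.39 and -0.258 for mitochondrial ribosomal proteins, and -0.248 and -0.336 for factors. Against Con they were -0.067 and 0.109, 0.055 and 0.126, and -0.049 and 0.069. Under quantile normalization 16 of 51 members were higher against Model, where none had been. Against Con 28 of 50 were lower, beside 8 with the authors' size factors, and the cause was not tested. Among the named members alone the sign turned for 13 against Model and for 12 against Con. Against Model these were Eef1a1 (0.484), Eef1b2 (0.15), Eif2s3x (0.043), Eif3i (0.052), Eif4a1 (0.031), Rpl4 (0.416), Rpl7 (0.333), Rpl7l1 (0.032), Rps23 (0.06), Rps24 (0.039), Rps3a1 (0.313), Rps7 (0.218) and Rpsa (0.143). Against Con they were Eef1a2 (-0.004), Eef1g (-0.211), Eef2 (-0.077), Eif3g (-0.022), Eif4ebp1 (-0.059), Eif5a (-0.203), Mrpl16 (-0.077), Mrpl51 (-0.135), Mrpl9 (-0.078), Rpl3l (-0.139), Rpl8 (-0.166) and Rps13 (-0.053), and under median-ratio scaling Eef1g (-0.029), Eef2 (-0.003) and Eif5a (-0.032) turned too. Pseudocount 10 and edgeR changed neither the direction nor the side of the adjusted p for any of 39 named members against Model and 38 against Con. Leaving out a library took 34 such values against Model and 10 against Con out of significance and left 200 and 218 past the adjusted p. Libraries with the same replicate number did not deviate together (correlations 0.11, -0.119 and -0.081 against Model, -0.023, -0.116 and -0.14 against Con). Pairs with different numbers reached 0.253 against Model and 0.226 against Con. The sample titles give only the number, and a shared batch was not tested. With the replicate number as a block 6 members were called against Model, 47 of 51 passed the adjusted p, and the calls over all listed genes went from 2575 to 2574, while against Con 4 members were called and all 50 passed.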
